A study of Danio rerio with 9 samples.

Results

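The transcripts described here are 126 short, unannotated long intergenic noncoding RNAs (lincRNAs) from a catalog of 813 lincRNAs of the zebrafish heart. Each had no counterpart in the annotations used for the catalog, exactly 2 exons and a length under 1000 nt, and lay on chromosomes 1 to 25 other than chromosome 4. Of the 813 lincRNAs, 423 were unannotated, 325 of these had 2 exons, 162 of those were under 1000 nt, and 130 of those lay on the allowed chromosomes. Of these, 1 lincRNA on the catalog's bidirectional list and 3 others, by name, were then left out. Apart from the 3 left out by name, the choice used structure, annotation and position and no difference between tissues. However, every catalog entry had to exceed 0.1 FPKM (fragments scaled by transcript length and by the size of the library) in a heart tissue. Directions against muscle are therefore not independent of that requirement.

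RNA-seq was done on 3 tissue types of wild-type zebrafish, which the methods name as the WIK strain, with 3 samples of each. Embryonic heart was taken at 4 days, adult heart at 6 months, and adult muscle from fish described only as adult. No allele or treatment separated the groups. Neither the labels nor the methods say how many fish made up a sample, so p-values measure the spread between these samples. In whole tissue, fewer cells of a type and less RNA per cell cannot be told apart. The labelled tissues were not checked against marker genes, because the values carry assembly identifiers without gene names.

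LincRNAs are transcribed from stretches between protein-coding genes, are usually capped and spliced like messenger RNAs, and do not serve as templates for protein. Some act on neighboring genes and others act away from their own locus, and in the heart a few are known to take part in lineage commitment or in the response to stress. No role is known from these files for any of the 126 lincRNAs, so they are grouped below by where they were detected.

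The depth of the samples is unknown, because only FPKM values were used. The summed FPKM of a sample ran from 4.49e+06 to 1.92e+07 in embryonic heart, from 2.79e+06 to 3.19e+06 in the adult heart and from 3.14e+06 to 4.64e+06 in adult muscle, and 10 transcripts held 64.2% to 95.3% of it. Between 21054 and 22693 transcripts were listed at 0 in an embryonic heart sample, against 14320 to 16359 in an adult heart sample. Across the 126 lincRNAs, Pearson's r between log2 values of samples of one tissue type was 0.70 to 0.75 in embryonic heart, 0.74 to 0.79 in the adult heart and 0.84 to 0.91 in muscle. This is a description across lincRNAs, which are not independent replicates.

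One of the 126 lincRNAs, TCONS_00052125, had a primer pair for PCR among the supplementary sequences, and these are the only sequences shown, because they mark the exact transcript that could be followed in the tissue. TCONS_00052125 was 454 nt long and lay at chr21:5733049-5734113 on Zv9, the genome build of all coordinates given here. The strand is not given in the sources used here. Both primers are written 5′ to 3′ in lower case with no part marked.
TCONS_00052125 forward: aacggatgactgaaggctcc
TCONS_00052125 reverse: tcctcagaaactctggaaacac

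TCONS_00052125 was among the most abundant of the 126 lincRNAs in every tissue type. Its FPKM was 76.1, 51.6 and 67.0 in the embryonic heart samples, 58.1, 40.3 and 38.7 in the adult heart samples and 27.7, 34.4 and 37.7 in the muscle samples. All heart samples were above all muscle samples, while the samples of the hearts overlapped, and no comparison of it was called.

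The lincRNAs were short by choice, and they varied in how they were spread over the genome. Lengths ran from 200 nt (TCONS_00067507) to 978 nt (TCONS_00028456), with a median of 491 nt, and 25 were under 300 nt. The next unannotated 2-exon entry on these chromosomes, TCONS_00020512, was 1014 nt long. It was listed at 0 in all 3 embryonic heart samples and had 0.467, 0.370 and 0.307 FPKM in adult heart. The single intron, taken as span minus length, had a median of 1421 nt and ran from 13 to 110094 nt. It was under 100 nt in 6 lincRNAs, under 1000 nt in 59 and over 10000 nt in 13. Whether the shortest of these gaps are spliced introns was not checked. The 126 lincRNAs lay on 23 of the 24 allowed chromosomes, with 2 to 11 on each. Of them, 14 (11.1%) started in the first megabase of their chromosome, against 4 of 137 (2.92%) unannotated 2-exon lincRNAs of 1000 nt or more and 3 of 125 (2.40%) annotated 2-exon lincRNAs. Those shares are descriptions without a test. The 14 are not all separate loci, as they include the overlapping pairs TCONS_00017587 with TCONS_00017588 and TCONS_00043089 with TCONS_00043090. An orthologous region in human or mouse was listed for 13 of the 126 lincRNAs.

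Levels were low in all tissue types, with a few lincRNAs far above the rest. The median over the 126 lincRNAs of the mean FPKM was 0.395 in embryonic heart, 0.689 in the adult heart and 0.517 in muscle. Medians taken within single samples ran from 0.228 to 0.309 FPKM in embryonic heart, from 0.601 to 0.811 in the adult heart and from 0.392 to 0.469 in muscle, so those of embryonic heart and muscle lay below the median of means. A mean above 0.1 FPKM was found for 89 lincRNAs in embryonic heart, 117 in the adult heart and 98 in muscle. It was found in all 3 tissue types for 69, in both hearts only for 11, in adult heart only for 13 and in embryonic heart only for 4. A further 24 had it in adult heart and muscle only and 5 in embryonic heart and muscle only. The 5 most abundant lincRNAs gave 53.8% of the summed level in embryonic heart, 42.9% in the adult heart and 64.2% in muscle. The longer unannotated 2-exon lincRNAs had medians of 0.247, 0.635 and 0.482 FPKM in the same order, and annotated 2-exon lincRNAs had 0.333, 0.347 and 0.283 FPKM.

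Values listed at 0 were most common in embryonic heart. They made up 127 of 378 values there, 28 in the adult heart and 67 in muscle, and 19 lincRNAs were listed at 0 in all 3 embryonic heart samples. Among the longer unannotated lincRNAs, 54 of 411 embryonic heart values were at 0. Within the 126, low values above 0.01 FPKM in embryonic heart differed with length, while 17 of the 378 values there lay between 0 and 0.01 FPKM. The 10th percentile of values above 0.01 FPKM in embryonic heart was 0.701 FPKM in lincRNAs under 300 nt and 0.0925 FPKM in those of 500 nt or more.

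**Figure D1:**
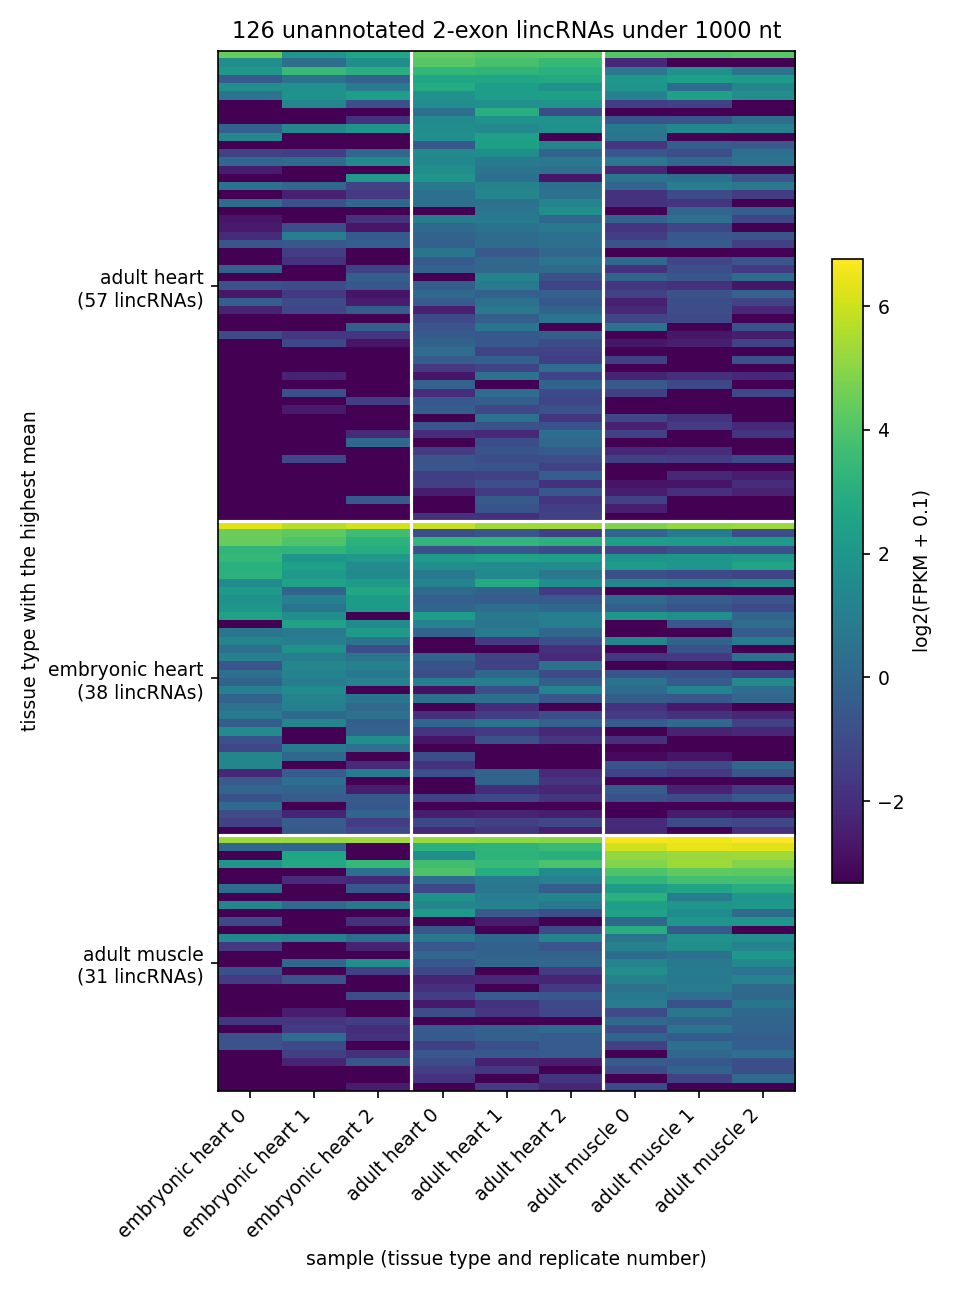
Each row is 1 of the 126 lincRNAs and each column 1 of the 9 samples, colored by log2(FPKM + 0.1). Rows are grouped by the tissue type with the highest mean (57 in adult heart, 38 in embryonic heart and 31 in muscle) and ordered by that mean, and the darkest cells, most frequent in embryonic heart, are values at or near 0.

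**Figure D2:**
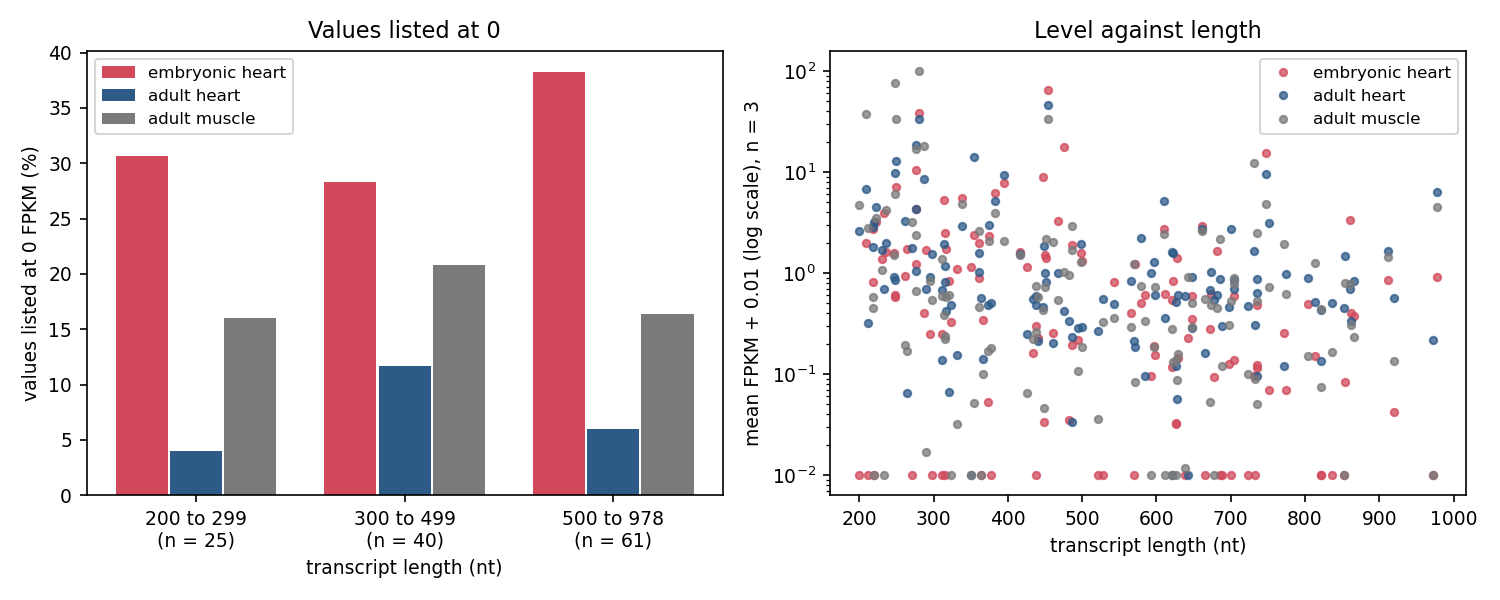
The bars give the percent of values listed at 0 FPKM for lincRNAs of 3 length classes (25, 40 and 61 lincRNAs) in each tissue type. The points give each lincRNA's mean over 3 samples plus 0.01 FPKM, on a log scale, against its length in nt.

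The comparison of adult with embryonic heart asks which of these lincRNAs differ between the mature and the developing organ. A lincRNA was called where limma, fitted to log2(FPKM + 0.1) of all samples and all 69118 tested transcripts, gave a Benjamini-Hochberg adjusted p below 0.05 and the mean FPKM differed by more than 2-fold. All 126 lincRNAs were tested, 17 of them only because 1 tissue type passed the filter of 0.1 FPKM. By this rule 34 lincRNAs (27.0%) were higher in adult heart, where 12.2% of all tested transcripts were, and 11 (8.73%) were lower, where 7.23% were. Of the 34, 12 had passed the filter only through adult heart, where they had to be high, and of the 11, 2 only through embryonic heart. Among the 109 lincRNAs above 0.1 FPKM in at least 2 tissue types, 22 (20.2%) were called higher and 9 (8.26%) lower, beside 13.4% and 8.21% of the 50714 such transcripts. The median log2 fold change was 0.99 over the 126 lincRNAs and 0.18 over all tested transcripts. With a median-ratio rescaling of the samples the latter became 0.00, the calls over all transcripts went from 8423 higher and 4996 lower to 6917 and 6679, and those of the 126 lincRNAs went to 32 and 13. Samples did not overlap for 46 lincRNAs higher in the adult heart and 15 lower, where 24.2% and 15% of all tested transcripts did so. The 46 and the 15 include lincRNAs that passed the filter only through the heart where they are high. Among the longer unannotated 2-exon lincRNAs, 32 of 136 were called higher and 5 lower, and among annotated ones 13 of 124 and 9.

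Most of the lincRNAs called higher in adult heart were at or near 0 in the embryo. Of the 34, 12 were listed at 0 in all 3 embryonic heart samples, 12 in 2 samples, 6 in 1 sample and 4 in none. The embryonic heart samples also had more transcripts at 0 over the whole table, as given above, and the part of this in the 34 calls was not tested. On the catalog's sheets, 29 of the 34 were listed for adult heart only, a listing made on the same samples.

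**Figure D3:**
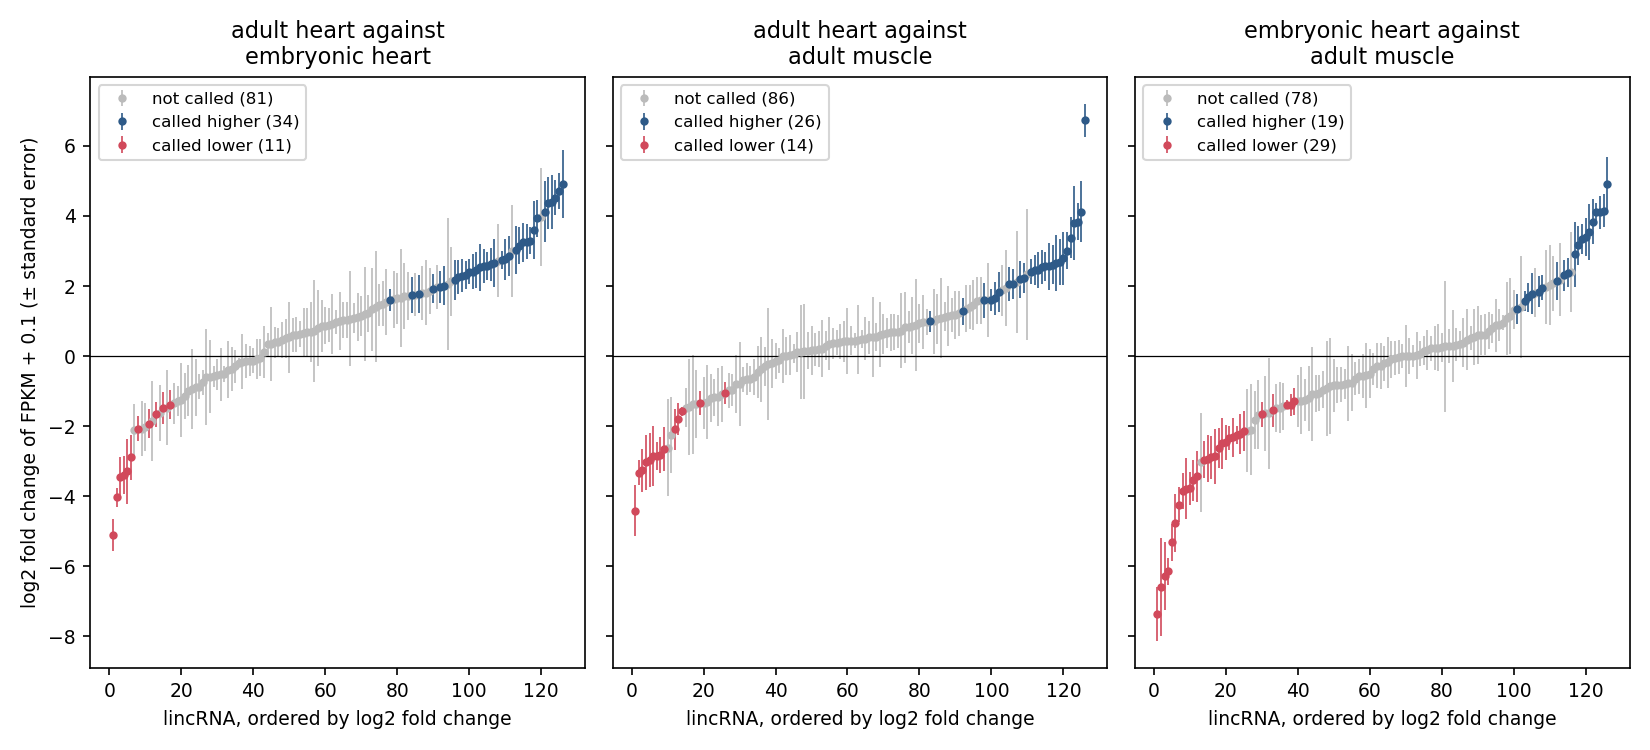
Points are the log2 fold changes of FPKM + 0.1 for the 126 lincRNAs in each comparison, ordered by size, with standard errors as bars. Blue points were called higher and red points lower in the first-named tissue type, 34 and 11 for adult against embryonic heart, 26 and 14 for adult heart against muscle, and 19 and 29 for embryonic heart against muscle.

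A set of 16 lincRNAs (12.7%) was called higher in adult heart than in both embryonic heart and muscle, where 4.35% of all tested transcripts were, and 11 of the 16 had passed the filter only through adult heart. The largest difference from muscle was that of TCONS_00005687 (355 nt, chr1:16627133-16629233). It had 17.5, 14.1 and 10.8 FPKM in the adult heart samples, 2.97, 1.14 and 2.96 in embryonic heart, and 0.125, 0 and 0 in muscle. The 3 tissue types did not overlap. Its log2 fold change was 6.74 ± 0.47 (SE, adjusted p = 1.83e-05) against muscle and 2.62 ± 0.47 (adjusted p = 0.00527) against embryonic heart, and embryonic heart was also above muscle (4.11 ± 0.47, adjusted p = 0.000244). The size depended on the pseudocount, and over the alternatives the log2 fold change against muscle ran from 3.84 to 9.19. The call against embryonic heart was lost with a pseudocount of 0.01 (adjusted p = 0.0901).

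TCONS_00004367 (449 nt, chr1:46536194-46570412) was at or near 0 in the 6 samples outside adult heart. Its FPKM was 2.97, 1.39 and 1.22 in adult heart, 0.0704, 0 and 0 in embryonic heart and 0.108, 0 and 0 in muscle. It was tested only because adult heart passed the filter, so its values are given as a description. TCONS_00027743 (751 nt, chr15:46439630-46440503) had 2.61, 3.45 and 3.38 FPKM in adult heart, 0, 0 and 0.177 in embryonic heart and 0.512, 0.527 and 1.12 in muscle. Its samples fell into 3 separate groups with embryonic heart lowest. Against embryonic heart it rose by a log2 fold change of 4.52 ± 0.50 (adjusted p = 0.000481), with 1.97 to 6.88 over the alternatives. Its call against muscle (adjusted p = 0.0174) was lost in 5 of 14 alternatives, with adjusted p up to 0.207.

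Where a lincRNA of this set was listed at 0 in every sample of a tissue type, no fold is given against it. TCONS_00018590 (220 nt, chr13:28938114-28942845) had 1.20, 8.03 and 0.398 FPKM in the adult heart and was listed at 0 elsewhere. One sample carried most of its mean, and its coefficient of variation in adult heart, 131%, was the largest among lincRNAs with a mean above 1 FPKM there. Both of its calls were lost with a pseudocount of 1. TCONS_00011910 (852 nt, chr11:29323046-29324047) was also listed at 0 in all 6 samples outside adult heart and had 0.526, 0.517 and 0.289 FPKM there. TCONS_00100951 (593 nt, chr9:52047434-52049830) had 1.41, 0.610 and 0.943 FPKM in adult heart, 0, 0.258 and 0 in embryonic heart, and 0 in all muscle samples. TCONS_00018590, TCONS_00011910 and TCONS_00100951 were each tested only because adult heart passed the filter, so their values are given as a description.

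A further 9 lincRNAs (7.14%) were called higher in embryonic heart than in both adult tissues, where 4.8% of all tested transcripts were, and 2 of the 9 had passed the filter only through embryonic heart. TCONS_00042736 (475 nt, chr19:50167804-50170344) had 21.6, 19.2 and 12.4 FPKM in embryonic heart, 0.420, 0.543 and 0.275 in the adult heart and 0.866, 1.73 and 0.424 in muscle. The embryonic heart samples were far above all 6 others, while the adult tissues overlapped. Adult minus embryonic heart was -5.12 ± 0.46 in log2 units (adjusted p = 0.000188), the lowest of the 126, and embryonic heart minus muscle was 4.16 ± 0.46 (adjusted p = 0.000209).

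TCONS_00019262 (447 nt, chr13:153095-155295) had 9.58, 9.63 and 7.54 FPKM in embryonic heart, 0.445, 0.541 and 0.370 in the adult heart and 0.335, 0.486 and 0.455 in muscle. Again only the embryonic heart samples stood apart. Its log2 fold change, adult minus embryonic heart, was -4.03 ± 0.27 (adjusted p = 3.71e-05). TCONS_00092601 (628 nt, chr7:15231404-15251817), measured at 1.30, 1.93 and 1.01 FPKM in embryonic heart and at most 0.172 in any adult sample and tested only through embryonic heart, is given as a description.

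TCONS_00090172 (350 nt, chr7:5363876-5367352) was listed at 0 in all 6 adult samples and had 0.356, 1.72 and 1.31 FPKM in embryonic heart. It too was tested only through embryonic heart, and its values are given as a description. TCONS_00022824 (860 nt, chr14:2806299-2809705) had 3.56, 2.07 and 4.39 FPKM in embryonic heart, and its adult values lay between 0.551 and 1.03 FPKM. The groups did not overlap, with an adult minus embryonic log2 difference of -2.08 ± 0.35 (adjusted p = 0.00396). TCONS_00061137 (264 nt, chr23:1661223-1661588) was less certain. It had 1.18, 3.56 and 0.429 FPKM in embryonic heart and one muscle sample at 0.483, inside that range, and each of its calls was lost in several alternatives.

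The calls between the hearts are given by length, intron size, position and orthologous region as counts with no test. Over the 126 lincRNAs 27.0% were called higher and 8.73% lower, and over all tested transcripts 12.2% and 7.23%. The same splits were not made over all transcripts. The counts below still hold the 12 higher calls tested only through adult heart and the 2 lower calls tested only through embryonic heart. Of the 61 lincRNAs of 500 nt or more, 23 were called higher in the adult heart and 5 lower, against 11 and 6 of the 65 shorter ones. By intron, 21 of 59 with an intron under 1000 nt were called higher, 12 of 54 with one of 1000 to 10000 nt and 1 of 13 with a longer one. Of the 14 that started in the first megabase of a chromosome, 6 were called higher and 1 lower. Of the 13 with an orthologous region in human or mouse, 2 were called higher and 2 lower. The study's list of fetal lincRNAs, drawn from these same samples, held 10 of the 126, of which 8 were called higher in the adult heart and 2 lower, so that this is no independent evidence of direction.

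Against adult muscle, 26 lincRNAs (20.6%) passed as higher in the adult heart and 14 (11.1%) as lower, where 9.6% and 11.1% of all tested transcripts were. The samples did not overlap for 43 higher and 24 lower, where 20.8% and 21.7% did so among all tested transcripts. The 43 include lincRNAs that passed the filter only through adult heart. The median log2 fold change was 0.48 over the 126 lincRNAs and 0.00 over all. Longer unannotated 2-exon lincRNAs gave 29 of 136 (21.3%) higher and 20 (14.7%) lower. Annotated 2-exon ones gave 10 of 124 (8.06%) and 11 (8.87%). Of the 26, 11 had passed the filter only through adult heart, and among the 109 lincRNAs above 0.1 FPKM in at least 2 tissue types, 15 (13.8%) were called higher and 14 (12.8%) lower, beside 10.1% and 10.2% of such transcripts. Both counts fell when an adult heart or muscle sample was left out. Those over all transcripts fell too, by a smaller share, and their higher count went from 6635 to 5146 without adult heart replicate 1. Without muscle replicate 0, 11.1% of the 126 lincRNAs and 7.97% of all tested transcripts were higher. Without muscle replicate 2, 5.56% and 9.91% were lower. Without embryonic heart replicate 0, both counts over all transcripts rose, to 6725 and 7754, and the lower count of the 126 lincRNAs was 15. The higher count was 15 without adult heart replicate 1, 17 without adult heart replicate 2, 14 without muscle replicate 0 and 16 without muscle replicate 2. The lower count was 8 without adult heart replicate 0, 8 without adult heart replicate 1, 8 without muscle replicate 0, 8 without muscle replicate 1 and 7 without muscle replicate 2.

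Embryonic heart against muscle gave 19 lincRNAs (15.1%) called higher and 29 (23.0%) lower, where 10.9% and 17.3% of all tested transcripts were, and 3 of the 19 had passed the filter through 1 tissue type only. Among the 109 lincRNAs above 0.1 FPKM in at least 2 tissue types, 16 (14.7%) were called higher and 29 (26.6%) lower. Of such transcripts over the whole table, 13.1% and 17.9% were. The samples did not overlap for 22 and 33 lincRNAs, where 17.4% and 26.1% did so among all. The 22 include lincRNAs that passed the filter only through embryonic heart. All comparisons share samples with one another, so their calls are not separate evidence. Measured against all 6 other samples at once, the adult heart samples were all above for 26 lincRNAs and all below for 3, where 9.89% and 4.85% of all tested transcripts were. The embryonic heart samples were all above for 11 and all below for 21, where 9.31% and 12.7% were, and the muscle samples were all above for 18 and all below for 13, where 14.9% and 8.38% were. The 26 and the 11 include lincRNAs that passed the filter only through that heart, where they had to be high. Over the 3 comparisons, 68 lincRNAs (54.0%) were called at least once, 15 of them having passed the filter through 1 tissue type only, and 58 in none, where 39.2% of all tested transcripts were called at least once.

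A set of 9 lincRNAs (7.14%) was called higher in both hearts than in muscle, where 4.09% of all tested transcripts were. Their adult heart calls against muscle were not all steady over 14 alternatives. The call was lost in 9 for TCONS_00029357, 7 each for TCONS_00021316 and TCONS_00093620, 4 for TCONS_00030248 and 1 for TCONS_00060100. It was never lost for TCONS_00005687, TCONS_00016498 and TCONS_00065691, and TCONS_00039872 was not followed. TCONS_00065691 (395 nt, chr24:43008240-43012719) had 3.94, 11.3 and 8.11 FPKM in embryonic heart, 10.2, 9.66 and 8.35 in the adult heart and 1.49, 3.37 and 1.39 in muscle. Every heart sample was above every muscle sample, and the hearts overlapped. The log2 fold change against muscle was 2.23 ± 0.43 in adult heart (adjusted p = 0.00622) and 1.84 ± 0.43 in embryonic heart (adjusted p = 0.0116).

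TCONS_00060100 (314 nt, chr23:22984492-23058354), which spans a long intron, had 8.90, 4.30 and 2.71 FPKM in embryonic heart, 1.58, 2.66 and 1.56 in the adult heart and 0.448, 0.366 and 0.317 in muscle. The 3 tissue types did not overlap. The log2 fold change of embryonic heart against muscle was 3.34 ± 0.43 (adjusted p = 0.000480). TCONS_00016498 (622 nt, chr12:26951349-26952105) had 1.22, 1.25 and 2.22 FPKM in the adult heart and 0.175, 0.190 and 0 in muscle, a log2 fold change of 3.01 ± 0.53 (adjusted p = 0.00381). TCONS_00093620 (233 nt, chr7:45214696-45219424) was listed at 0 in all muscle samples and had 4.40, 0.840 and 6.48 FPKM in embryonic heart and 1.02, 0.818 and 0.226 in adult heart. Its call in embryonic heart held in every alternative followed for named lincRNAs, and its call in adult heart was lost in several.

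**Figure D4:**
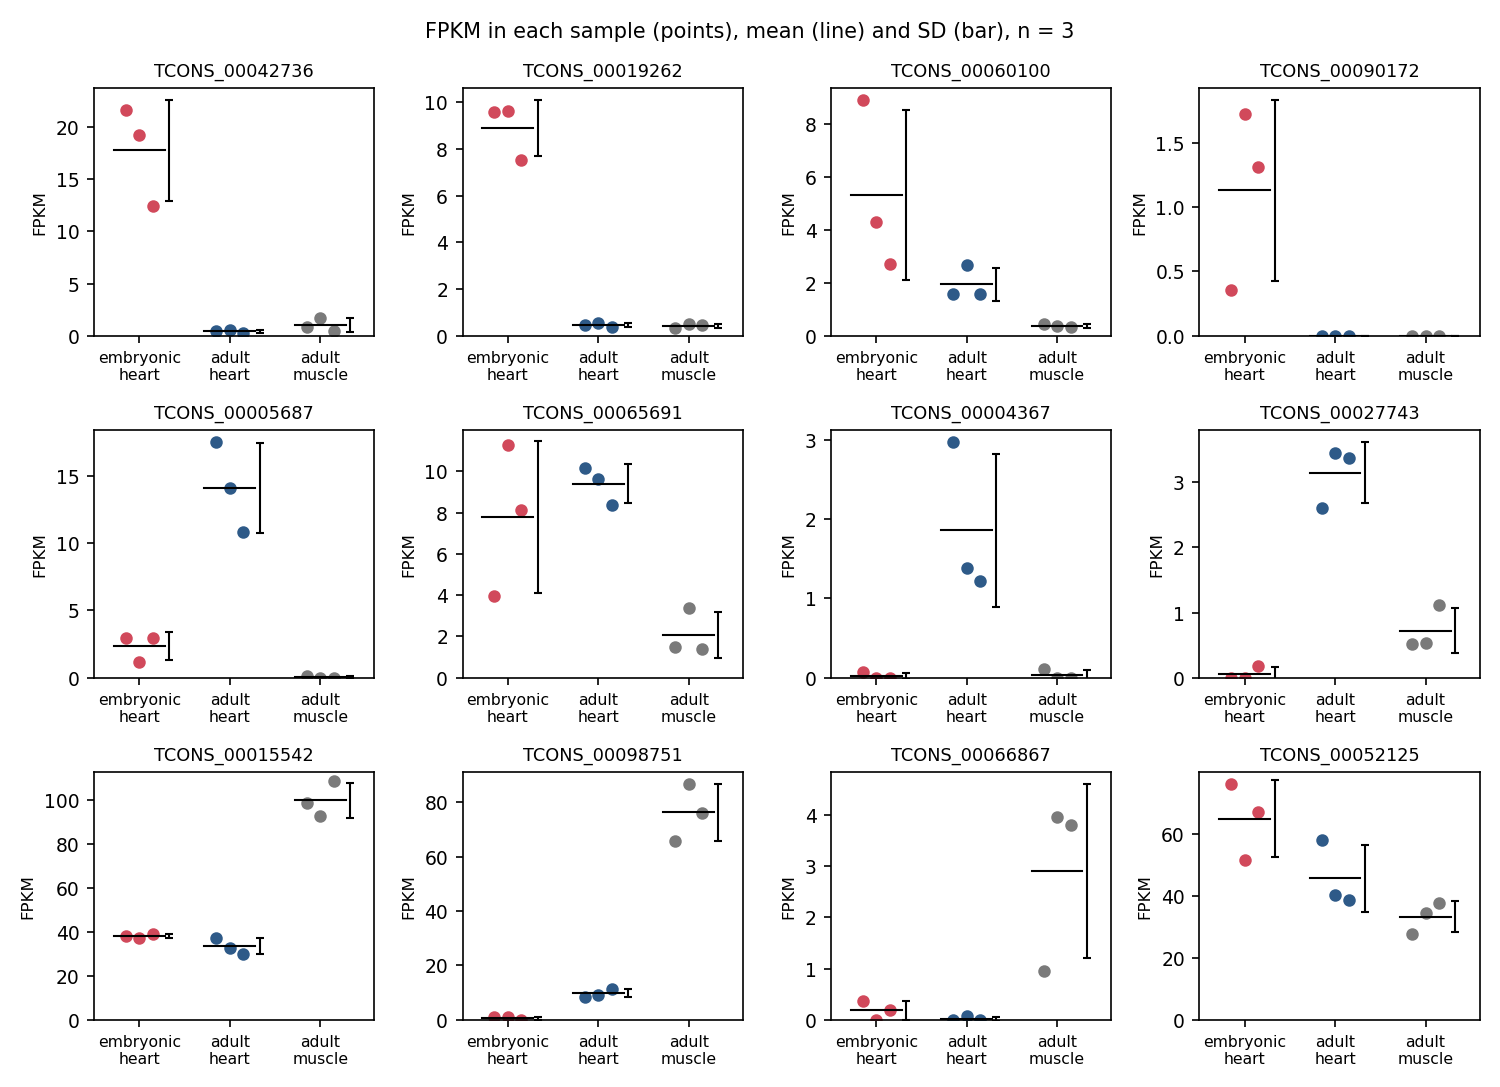
FPKM of 12 named lincRNAs in each of the 9 samples (points), with the mean (line) and SD (bar, drawn down to 0 at most) of the 3 samples of a tissue type. The top row is highest in embryonic heart, as in TCONS_00042736 with 12.4 to 21.6 FPKM there, the middle row is higher in adult heart than in muscle, and the first 3 panels of the bottom row are highest in muscle.

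Muscle was called higher than both hearts for 13 of the 126 lincRNAs (10.3%), where 8.68% of all tested transcripts were, and the highest level of any of the 126 was in muscle. TCONS_00015542 (280 nt, chr12:48155131-48161450) had 98.5, 92.7 and 109 FPKM in muscle, 37.3, 32.8 and 30.1 in the adult heart and 38.0, 37.0 and 38.9 in embryonic heart. The muscle samples were above all others, and its spread was small in each tissue type. Adult heart minus muscle was -1.58 ± 0.13 in log2 units (adjusted p = 5.71e-05).

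TCONS_00098751 (248 nt, chr8:52262773-52263199) formed 3 separate levels, with 65.9, 86.6 and 76.2 FPKM in muscle, 8.49, 9.29 and 11.3 in the adult heart and 0.935, 0.845 and 0 in embryonic heart. Embryonic heart against muscle had a log2 fold change of -7.36 ± 0.77 (adjusted p = 0.000147), the lowest of the 126. Adult heart against muscle had -2.96 ± 0.77 (adjusted p = 0.0245). The SE is the same because one fit shares the spread of all 3 tissue types, including the embryonic heart sample listed at 0. That call was lost in 7 of 14 alternatives, with adjusted p from 2.53e-05 to 0.220 over them. TCONS_00066867 (487 nt, chr25:21098776-21146507) had 0.951, 3.96 and 3.79 FPKM in muscle, 0, 0.0700 and 0 in the adult heart and 0.373, 0 and 0.182 in embryonic heart, so muscle stood above both hearts.

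Embryonic heart was called lower than both adult tissues for 16 lincRNAs (12.7%), where 5.77% of all tested transcripts were. The shortest of the 126, TCONS_00067507 (200 nt, chr25:363134-363804), was listed at 0 in all embryonic heart samples and had 3.58, 1.88 and 2.41 FPKM in the adult heart and 8.55, 1.83 and 3.68 in muscle. The longest, TCONS_00028456 (978 nt, chr16:11988448-11990227), had 0.619, 1.26 and 0.803 FPKM in embryonic heart, 6.01, 5.99 and 6.94 in the adult heart and 4.02, 5.04 and 4.41 in muscle. Its 3 tissue types did not overlap, and adult minus embryonic heart was 2.74 ± 0.26 in log2 units (adjusted p = 0.000256).

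Some of the 126 lincRNAs lay within 50000 nt of one another. On chromosome 13, TCONS_00019262, the embryonic lincRNA given above, lay 11305 nt from TCONS_00017587 (287 nt, chr13:166601-169101), whose levels ran the other way. TCONS_00017587 had 0, 0 and 1.18 FPKM in embryonic heart, 15.1, 7.45 and 2.90 in the adult heart and 15.9, 19.8 and 18.5 in muscle. All embryonic heart samples were below all others, with an adult minus embryonic log2 difference of 4.90 ± 0.97 (adjusted p = 0.00835). TCONS_00017588, which overlaps TCONS_00017587 and shares its end, had the same order of tissue types at a lower level.

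On chromosome 24, a pair 25797 nt apart was highest in muscle. TCONS_00064814 (731 nt, chr24:16618526-16619383) had 9.85, 13.3 and 13.7 FPKM in muscle, 1.16, 1.65 and 2.10 in the adult heart and 0, 0.140 and 0.115 in embryonic heart, with no overlap between tissue types. TCONS_00064822 (209 nt, chr24:16645181-16650414) had 35.2, 38.0 and 40.0 FPKM in muscle, 3.04, 8.96 and 8.18 in the adult heart and 0, 5.97 and 0 in embryonic heart. Muscle stood apart, but the hearts overlapped because of one embryonic heart sample. On chromosome 21, TCONS_00052124 (486 nt, chr21:5696873-5704499), the neighbor of TCONS_00052125, had 2.30, 1.94 and 1.36 FPKM in embryonic heart, 0, 0.215 and 0.456 in the adult heart and 2.35, 0.859 and 1.78 in muscle. Adult heart was the lowest tissue type in all its samples.

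Overlap here is between spans, introns included, and exon positions and strands were not compared. Where exons are shared, the estimate for one lincRNA depends on how fragments were divided between the pair, which was not tested. Of the 126 lincRNAs, 5 pairs overlapped. TCONS_00080147 had 2.17e-06, 1.48 and 3.11 FPKM in the adult heart and TCONS_00080148 had 3.27, 5.32 and 1.17e-07, so each was near 0 in a sample where the other was not. Their sum was 3.27, 6.79 and 3.11 FPKM, with a coefficient of variation of 47.4% against 102% and 93.7% for each alone. TCONS_00043089 and TCONS_00043090 summed to 2.12, 1.57 and 1.91 FPKM in adult heart, a coefficient of variation of 14.7% against 23.7% and 79.8%. The sum was not steadier in every pair, and a sum of unrelated values can also be steadier than its parts. TCONS_00017587 and TCONS_00017588 summed to 19.4, 8.10 and 3.35 FPKM in adult heart, with a coefficient of variation of 80.0% against 72.8% for the first alone.

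**Figure D5:**
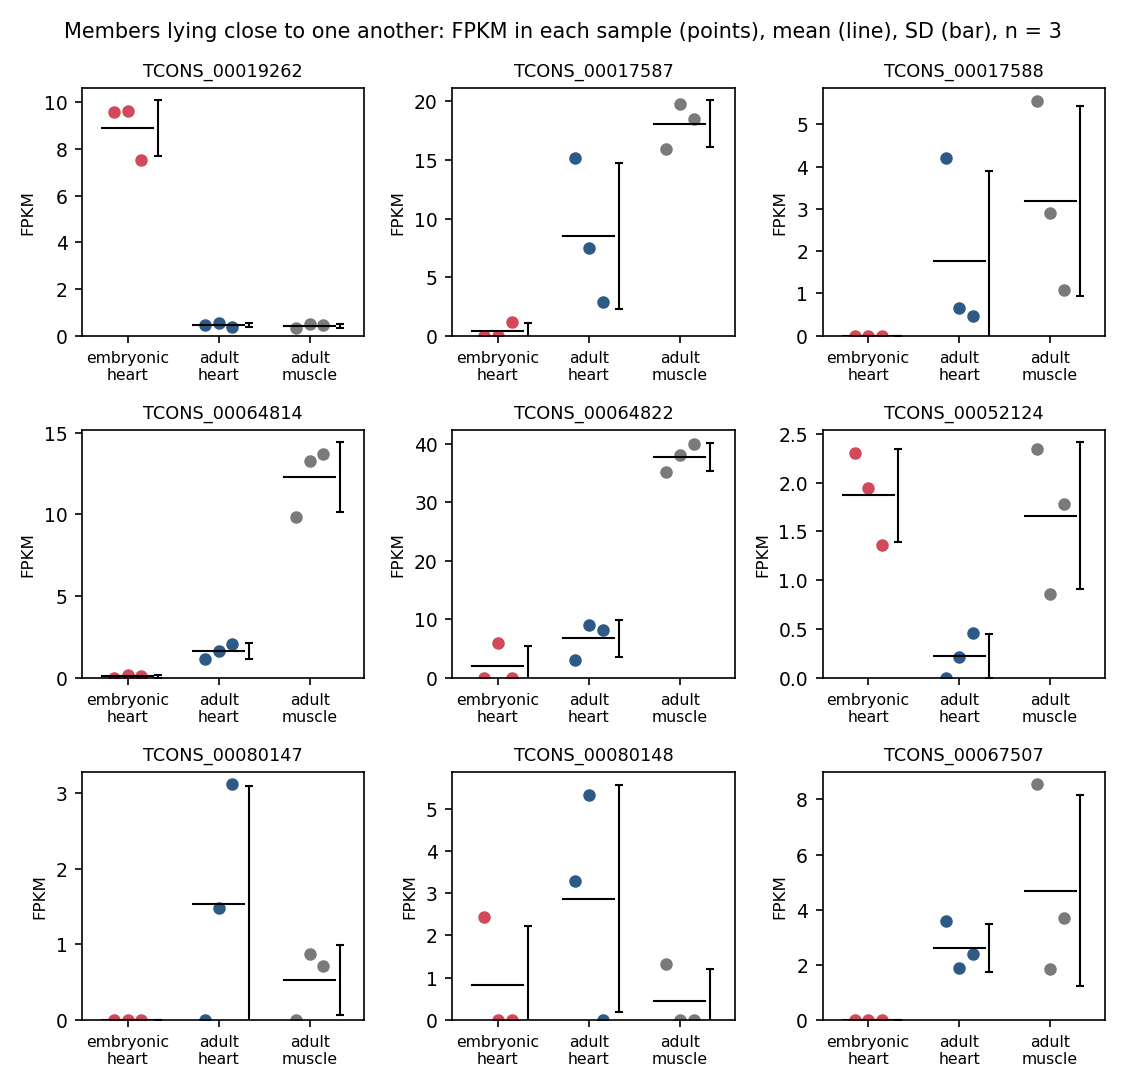
FPKM of 9 lincRNAs that lie near or overlap another of the 126, in each of the 9 samples (points), with the mean (line) and SD (bar, drawn down to 0 at most) of the 3 samples. TCONS_00019262 is high in embryonic heart (7.54 to 9.63 FPKM), where its neighbor TCONS_00017588 is at or near 0 and TCONS_00017587 has 0, 0 and 1.18 FPKM. TCONS_00064814 and TCONS_00064822 are both highest in muscle.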

How the data were processed

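The authors aligned the reads to Zv9 and assembled transcripts with TopHat 2.0.12 and Cufflinks 2.2.1 (versions from the submitters' processing notes), and deposited Cuffnorm FPKM values for 103079 transcripts in 9 samples. The scaling option of Cuffnorm is not given in the sources used here. Cuffdiff needs the reads and was not repeated. Depth is unknown, so no counting interval is given.

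Transcripts with a mean above 0.1 FPKM in at least 1 tissue type were tested as log2(FPKM + 0.1) with limma 3.58.1 in R 4.3.3, two-sided, with an intensity trend and all 3 tissue types in one fit. The added 0.1 makes the fold changes of low transcripts smaller than the ratios of their listed values. Against values below detection, the size of the fold is set by the added 0.1 and can be too large or too small. P-values were adjusted by Benjamini-Hochberg across 69118 transcripts. The fit was also run on simulated transcripts, but only with means above 1 FPKM, so that run does not bear on calls at lower levels. Summaries used Python 3.11.15 with numpy 2.4.6 and pandas 2.3.3, and plots used matplotlib 3.10.9.

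The lincRNAs and lists were chosen with earlier results of these data known. Those named are drawn from up to 8 called in each direction of a comparison with the largest fold change and no overlap of samples, the 10 most abundant, those within 50000 nt of another, the shortest and longest, those with the largest spread, and those in the study's supplementary lists of named lincRNAs. Structure, sheets and primers came from the supplementary tables. Alternatives changed the pseudocount, filter, scaling, trend, samples in the fit, replicate block, thresholds, samples left out and overlapping lincRNAs left out.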

Additional observations from a re-analysis of the deposited data

How the results depend on the processing

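The calls of named lincRNAs were followed over 14 alternatives. These were pseudocounts of 1 and 0.01, median-ratio rescaling, quantile normalization, replicate block and each sample left out. Changes of filter, trend or threshold were not among them. No named call changed direction in the 14 alternatives, and 64 of 100 were called in all of them. They were 22 of 33 for adult against embryonic heart, 11 of 30 for adult heart against muscle and 31 of 37 for embryonic heart against muscle. Some were calls of lincRNAs tested only through the tissue type where they are high. Many were named for a large fold change without overlap of samples, so their stability is no separate support. With a filter of 1 FPKM, 74 of the 126 lincRNAs were tested, and those higher in adult heart were 17 (23.0%, beside 17.7% of all tested) against embryonic heart and 14 (18.9%, beside 14.4%) against muscle. Keeping only lincRNAs above 0.1 FPKM in at least 2 tissue types was an alternative chosen after seeing the data. It gave 22 and 15 (20.2% and 13.8%, beside 13.4% and 10.1% of such transcripts). Leaving out overlapping lincRNAs, also not planned in advance, kept 116. Between the hearts 28 (24.1%) were then called higher and 11 (9.48%) lower, beside 12.2% and 7.23% of all tested. For adult heart against muscle the calls were 22 (19.0%) and 14 (12.1%), beside 9.60% and 11.1%. At an adjusted p below 0.01, adult against embryonic heart had 20 higher (15.9%, beside 5.94% of all tested) and 5 lower (3.97%, beside 4.05%). Adult heart against muscle had 13 higher (10.3%, beside 5.52%) and 6 lower (4.76%, beside 7.11%). A pseudocount of 0.01 gave 17 higher and 5 lower against muscle, and no filter gave 8 lower. Leaving out each sample gave 14 to 23 higher and 7 to 15 lower in adult heart than in muscle, and medians of 0.342 to 0.388 FPKM in embryonic heart and 0.449 to 0.494 FPKM in muscle. Above 0.5 FPKM there were 59 lincRNAs in embryonic heart, 64 in muscle and 45 in heart and not muscle (28 at 0.1 FPKM). Above 1 FPKM there were 43 in embryonic heart, 45 for adult heart and 40 for muscle. Above 0.1 FPKM in all 3 samples there were 49 in embryonic heart, and the median of samples gave a median of 0.283 FPKM there.

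The scaling was tried in several ways. The planned median-ratio rescaling, over transcripts above 0 FPKM in all samples, had factors that were all above 1. It lowered the medians to 0.340 FPKM in embryonic heart, 0.486 for adult heart and 0.360 for muscle. Calls between the hearts were then 32 and 13 (25.6% and 10.4%, beside 10.5% and 10.1% of all tested). A second version, over transcripts above 0.1 FPKM in all samples, was chosen after the result of the first was seen. It left the median over all transcripts at 0.19 and gave 34 and 10 calls between the hearts (27.0% and 7.94%, beside 12.3% and 7.10%). Quantile normalization gave -0.01 with 30 and 12 (23.8% and 9.52%, beside 9.83% and 8.95%). The shift over all transcripts between the hearts thus depends on which transcripts set the scale, and the cause was not tested.

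With replicate number as a block, 30 and 10 lincRNAs were called between the hearts, 21 and 11 for adult heart against muscle and 17 and 27 for embryonic heart against muscle. Deviations of same-numbered samples correlated at -0.016 to 0.071 and those of differently numbered samples at -0.060 to 0.068. These values cannot show whether same-numbered samples share fish, which the sources used here do not state. Unknown depth limits all low values, most of all for the shortest lincRNAs.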
